A study of Sus scrofa with 16 samples.

Results

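The nuclear-encoded subunits of the mitochondrial respiratory chain and the ATP synthase were followed while porcine embryonic stem cells (pESCs) differentiated into midbrain dopaminergic (mDA) neurons. Members were chosen by gene symbol alone, as the NDUF, SDH, UQCR, COX, CYC1 and ATP5 symbols of the respiratory chain, and the rule used no expression value. The choice was made with earlier results of these data known. The members were 69 of the 28232 genes in the table. Complex I had 36 members, complex II 4, complex III 2, complex IV 9 and complex V, the ATP synthase, 15. ATP5S and ATP5SL also carry a matching symbol but are not subunits of the ATP synthase, and the remaining member is an NDUFA4 pseudogene with 3 counts over all 16 libraries. In all, 68 members had enough counts to be tested, the pseudogene being the exception. The annotation of the pig lists another 17 subunits under symbols that the rule does not match (7 of complex III and 9 of complex IV under locus symbols, and 1 of complex V, USMG5). Because complex III held only UQCR10 and UQCRB by the rule, these genes are given beside the members in several of the comparisons of complexes.

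RNA was sequenced in bulk from the line IVF_1_pESC_FIW, derived from an in vitro fertilized blastocyst, and from the line PA_3_pESC_FIW, derived from a parthenogenetically activated blastocyst. Both lines were sampled at day 0, before neural induction, and at days 16, 28 and 45, with 2 libraries per line and day. Day 0 cells had been moved from mouse feeder cells to Matrigel, and all later samples had received SB431542, Noggin, SHH and CHIR99021, followed by FGF8 and then BDNF and ascorbic acid, with GDNF, db-cAMP and DAPT added for terminal differentiation after day 16. Each embryo origin is 1 line, so that origin and line cannot be told apart. The labels do not say whether the 2 libraries of a group came from separate cultures, and p-values measure the spread between these libraries.

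Electrons from NADH enter the chain at complex I and those from succinate at complex II, pass through complex III and cytochrome c to complex IV, and reduce oxygen there. Complexes I, III and IV pump protons, and complex V uses the gradient to make ATP. Most subunits are encoded in the nucleus and imported, while a small core is encoded by mitochondrial DNA. Neurons depend heavily on this pathway, and dopaminergic neurons of the midbrain are known to be sensitive to inhibitors of complex I.

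Libraries held 39247693 to 52165867 counts, of which the members took 0.539 to 1.04%. Replicates correlated at 0.983 to 0.998 across genes (Pearson r of log2 levels, as a description), lowest in PA cells at day 45. The 2 IVF libraries of day 45 differed most in the members themselves, with an SD of 0.231 on the log2 scale for the median member against 0.021 to 0.105 in the other groups, and the first replicate was the higher. The pluripotency marker POU5F1 averaged 918 CPM (counts scaled to library size) in IVF and 1073 in PA cells at day 0 and was at or near 0 from day 16 on. TH, the enzyme that marks dopaminergic neurons, had a mean of 0 CPM at day 0, and its means at days 16, 28 and 45 were 4.40, 24.6 and 68.7 CPM in IVF and 15.7, 56.3 and 42.7 CPM in PA cells. DDC, the next enzyme of dopamine synthesis, went from 0.132 CPM at day 0 to 103 at day 45 in IVF and from 0.366 to 53.1 in PA cells. Among the 10 listed markers, PITX3 averaged no more than 1.99 CPM in any group, and SLC6A3 was no higher after day 0 (at most 1.72 CPM in IVF and 1.18 in PA cells) than at day 0 (2.35 and 4.51 CPM). Differences were tested with edgeR's quasi-likelihood test over all 18528 genes that passed the filter, with a threshold of 0.05 on p-values adjusted after Benjamini and Hochberg. In bulk RNA, fewer cells of a type and less RNA per cell cannot be told apart.

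Summed over the members, mRNA was lower at day 16 than at day 0 in both lines, and from day 16 to day 28 it went up in IVF cells and further down in PA cells. The summed level of the 66 members in complexes I to V was 8451 and 8705 CPM in the 2 IVF libraries of day 0, 6181 and 6485 at day 16, 7079 and 6790 at day 28, and 8508 and 7499 at day 45. In PA cells the sums were 10485 and 11255 CPM at day 0, 7043 and 7339 at day 16, 5099 and 5150 at day 28, and 6352 and 5584 at day 45. PA libraries were thus above both IVF libraries at days 0 and 16 and below both at days 28 and 45, and in CPM the lines did not overlap on any day. The ratio of the PA mean to the IVF mean was 1.27 at day 0 and 1.14 at day 16, and it was 0.739 and 0.746 at the later days. The deposited TPM, which divides by transcript length, gave ratios of 1.17, 1.01, 0.747 and 0.80 for the same genes, and there the lines overlapped at day 16, with 16587 and 16991 TPM in IVF and 16553 and 17233 in PA libraries.

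**Figure D1:**
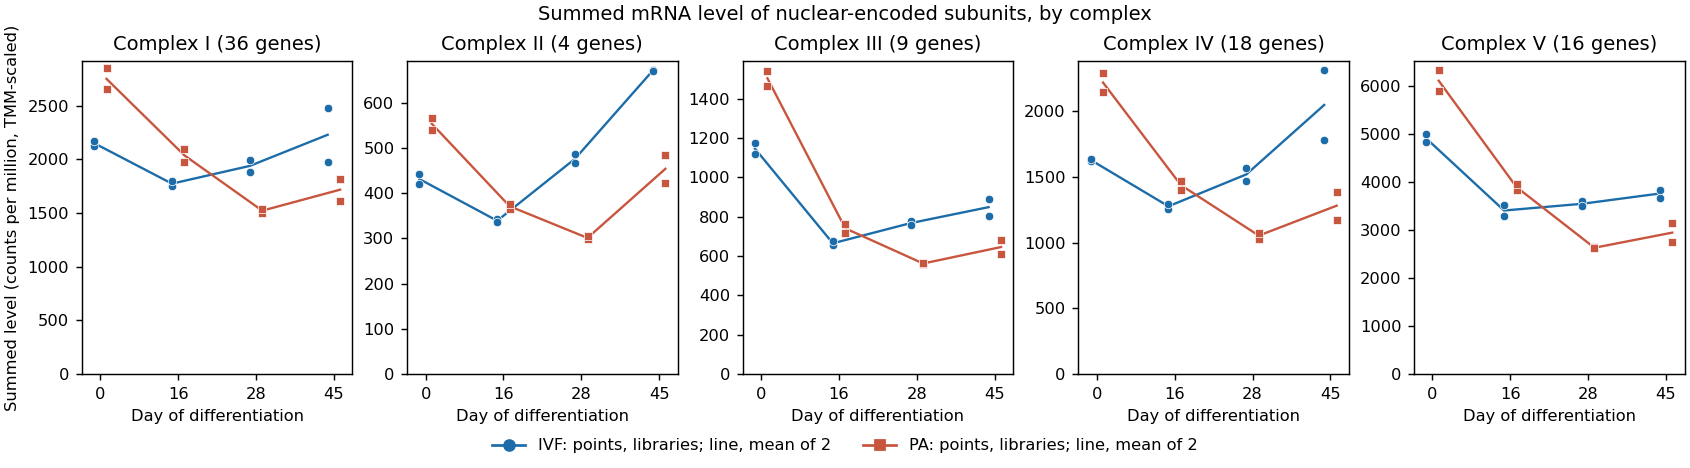
Summed TMM-scaled CPM of each complex (y axis) against the day of differentiation (x axis). The sums hold the members together with the subunits under other symbols, 83 genes in all, with 9 in complex III. Each library is 1 point, and a line runs through the mean of the 2 libraries of each line. In every panel PA cells start above IVF cells at day 0 and lie below them at days 28 and 45.

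Per transcript length, complexes IV and V were the most abundant, with medians of 555 and 428 TPM over their members in IVF cells at day 0, against 129 for complex I, 164 for complex II and 204 for complex III. These medians leave out the subunits under other symbols, so that complex III rests on 2 genes. The same order of the complexes was found in every group but IVF cells at day 16, where complex V was above complex IV. ATP5A1 and ATP5B, the alpha and beta subunits that form the catalytic head of the ATP synthase, averaged 1411 and 1179 TPM in these cells. NDUFA5 of complex I averaged 41.6 TPM. At day 45 the medians in IVF cells were 808 TPM for complex IV and 402 for complex V, against 561 and 396 in PA cells.

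Between days 0 and 16, 29 of 68 members fell and 2 rose in IVF cells, while among all genes 30.1% fell and 31.2% rose. In PA cells 41 fell and 0 rose (29.3% and 30.3% of all genes). The median member changed by -0.25 on the log2 scale in IVF cells and by -0.46 in PA cells, and the median of all genes by 0.00 in each line. ATP5A1 had 1300 and 1359 CPM in IVF cells at day 0 and 612 and 702 at day 16. In PA cells it had 1645 and 1747 CPM and then 733 and 736. It thus fell in both lines without overlap, by 1.02 ± 0.10 (log2 ± SE, adjusted p = 1.17e-06) in IVF and by 1.21 ± 0.10 (adjusted p = 2.25e-07) in PA cells. SDHB, the iron-sulfur subunit of succinate dehydrogenase, fell by 0.86 ± 0.09 in IVF cells (adjusted p = 8.92e-07) and by 1.14 ± 0.09 in PA cells (adjusted p = 5.49e-08). NDUFA4, once assigned to complex I and now known as a subunit of complex IV, went from 213 and 240 CPM to 83.2 and 87.6 CPM in PA cells, a fall of 1.41 ± 0.09 (adjusted p = 1.83e-08). NDUFA10, an accessory subunit of complex I, showed the largest fall of any member in PA cells at -1.46 ± 0.16 (adjusted p = 2.2e-06).

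Complexes differed in how many members moved in this step. In PA cells 7 of 9 members of complex IV and 11 of 15 of complex V fell, against 17 of 36 of complex I, with medians of -0.77, -0.48 and -0.36. All 7 nuclear-encoded core subunits of complex I, which carry its flavin and iron-sulfur clusters, fell in PA cells and 6 of 7 in IVF cells. Many small accessory subunits did not pass the test. The 2 members that rose in IVF cells were ATP5D, the delta subunit, at 0.43 ± 0.14 (adjusted p = 0.0193) and NDUFB3 at 0.32 ± 0.12 (adjusted p = 0.0346). Among the subunits under other symbols, 6 of the 7 genes of complex III fell in each line. UQCRFS1, the Rieske iron-sulfur protein of complex III (named after its values were seen), went from 373 and 382 CPM to 126 and 120 CPM in PA cells. The steps of the lines differed for 1 member, COX6A1, a structural subunit of complex IV, with 0 higher and 1 lower in PA cells (4.38% and 6.26% of all genes). That count was 0 when any 1 of 7 libraries was left out and 16 with only the groups compared in the fit. Cycling-cell markers (7 of 7 listed genes tested) summed to 3120 to 3281 CPM at day 0 over both lines, to 2240 to 2736 at day 16 and to 132 to 468 at later days, and their part in these changes was not tested.

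The lines parted between days 16 and 28. In IVF cells 16 members rose and 6 fell (22.9% and 24.1% of all genes), with a median of 0.14. The share of rises was near that of all genes, and the share of falls was below it. In PA cells 1 rose and 43 fell (29.5% and 30.9% of all genes), with a median of -0.44. The difference between the steps was tested directly as an interaction, and 42 of 68 members had a lower step in PA than in IVF cells and 0 a higher one, against 13.6% and 15% of all genes, with a median difference of -0.59. By complex, 15 of 36 members of complex I, 4 of 4 of complex II, 2 of 2 of complex III, 6 of 9 of complex IV and 14 of 15 of complex V had the lower step. Scaling to total counts gave 25 members higher and 4 lower in the IVF step, and 24 and 3 with mitochondrial RNAs left out of the totals. Fewer members passed in the interaction without the first IVF library of day 16 (25) or of day 28 (24), without the second PA library of day 16 (27) or without the first PA library of day 28 (27). The IVF count of 22 became 14 without either IVF library of day 16 or without the first of day 28, and 34 with only the 2 groups compared in the fit.

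SDHD, a membrane anchor of complex II, had 55.7 and 55.1 CPM in IVF cells at day 16 and 64.8 and 63.5 at day 28, against 62.1 and 65.6 and then 35.1 and 36.4 in PA cells. PA libraries were therefore slightly above IVF libraries at day 16 and well below them at day 28. The steps differed by -1.05 ± 0.13 (adjusted p = 4.46e-05). SDHA, the flavoprotein that oxidizes succinate, rose by 0.90 ± 0.10 in IVF cells (adjusted p = 5.66e-06) and changed by 0.07 in PA cells, where it did not pass the test, with a difference of -0.83 ± 0.14 (adjusted p = 0.000642). COX5B, a complex IV subunit on the matrix side, had a difference of -1.04 ± 0.22 (adjusted p = 0.00327), and NDUFA9 of complex I one of -0.82 ± 0.13 (adjusted p = 0.000374). NDUFS4, an accessory subunit of complex I whose loss causes Leigh syndrome in humans, fell in both lines. It had 84.6 and 94.2 CPM in IVF cells at day 16 and 51.4 and 53.5 at day 28, and 136 and 142 CPM and then 47.1 and 44.9 in PA cells. Its fall of 0.77 ± 0.10 in IVF cells (adjusted p = 2.56e-05) was the smaller, and the steps differed by -0.83 ± 0.14 (adjusted p = 0.000682).

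From day 28 to day 45, 29 members rose and 2 fell in IVF cells (21.1% and 20.9% of all genes). In PA cells 20 rose and 1 fell (23% and 21%), a share of rises near that of all genes, and 47 did not pass the test. Medians were 0.25 and 0.23. In IVF cells 8 of 9 members of complex IV rose, with a median of 0.45, against 10 of 36 and 0.22 for complex I. Cytochrome oxidase genes that rose in IVF cells included COX7C (0.52 ± 0.13, adjusted p = 0.006) and COX6A1 (0.45 ± 0.12, adjusted p = 0.00859), both structural subunits. NDUFC2, an accessory subunit of complex I, went from 56.6 and 57.8 CPM to 137 and 100 in IVF cells and from 51.2 and 50.6 to 101 and 73.6 in PA cells, a rise of 1.05 ± 0.15 (adjusted p = 0.000106) and of 0.78 ± 0.15 (adjusted p = 0.000838). SDHD rose by 0.55 ± 0.09 (adjusted p = 0.000271) in IVF cells and by 0.93 ± 0.09 (adjusted p = 2.51e-06) in PA cells. NDUFS3, a core subunit of complex I, and ATP5B fell in IVF cells, by 0.42 ± 0.12 (adjusted p = 0.00998) and 0.34 ± 0.10 (adjusted p = 0.0176).

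The counts of this last step leaned on single libraries. The IVF count of 31 became 20 without the first library of day 28, 12 without the second and 13 without the first library of day 45, and reached 38 without the second library of day 45. Scaling to total counts gave 20 members higher and 4 lower. The PA count of 21 became 12 and 11 without the first and second library of day 28, and 6 with only the 2 groups in the fit. The steps of the lines differed for 11 members, 7 higher and 4 lower in PA cells (15.8% and 15.2% of all genes), or 8 and 2 when scaled to total counts. This count was 7 without the first IVF library of day 28 and 4 without the second, 7 without the first IVF library of day 45, 6 and 4 without the first and second PA library of day 28, and 2 with only the groups compared in the fit.

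Day 45 was also compared with day 0. In IVF cells 23 members were higher at day 45 than at day 0 and 13 were lower (38% and 34.5% of all genes), with a median of 0.09 equal to that of all genes. In PA cells 3 were higher and 53 lower (37.2% and 34%), with a median of -0.79. A change of at least 2-fold was called for 4 members in IVF cells, all higher, where 49% of all genes passed in either direction, and for 19 in PA cells, 1 higher and 18 lower, where 47.3% passed. In PA cells 27 of 36 members of complex I, 2 of 4 of complex II, 2 of 2 of complex III, 7 of 9 of complex IV and 14 of 15 of complex V were lower. In IVF cells complex V had 3 higher and 5 lower members, with a median of -0.15, and complex IV 5 higher and 0 lower, with a median of 0.39. In complex III UQCRB was higher (0.34) and UQCR10 did not pass. Under other symbols, CYC1, UQCRC1, UQCRC2 and UQCRFS1 were lower (-0.50, -0.75, -0.53 and -1.14) and UQCR11 and UQCRH higher (2.91 and 0.58). In complex IV, COX6B2 and COX4I2 were lower (-3.67 and -1.56) and COX4I1, COX6A2 and COX7B higher (0.84, 0.29 and 0.53). USMG5 of complex V was lower (-0.46), and UQCRQ, COX5A and COX8A did not pass. Scaling to total counts gave 29 members higher and 9 lower in IVF cells, or 33 and 8 without mitochondrial RNAs in the totals, and it moved the median of all genes in PA cells from 0.08 to 0.31, where the members' median was -0.56. Without either IVF library of day 0 the IVF count of 36 became 23, and without the first IVF library of day 45 the IVF median was -0.01.

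SDHA had 146 and 153 CPM in IVF cells at day 0 and 385 and 356 at day 45, a rise of 1.31 ± 0.10 (adjusted p = 3.23e-08), while PA libraries held 205 and 219 CPM and then 237 and 196, which overlap. SDHB, its partner in the catalytic part of complex II, had 139 and 142 CPM in PA cells at day 0 and 59.4 and 61.5 at day 45, a fall of 1.22 ± 0.09 (adjusted p = 1.18e-08), against 94.4 and 99.1 and then 84.0 and 79.2 CPM in IVF cells (-0.25 ± 0.08, adjusted p = 0.0172). The subunits of this smallest complex, all 4 nuclear-encoded, therefore did not move together within a line. ATP5D rose by 1.10 ± 0.14 in IVF cells (adjusted p = 8.75e-06) from 64.8 and 59.4 CPM to 133 and 132, and had 85.4 and 93.5 CPM and then 98.7 and 68.4 in PA cells.

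**Figure D2:**
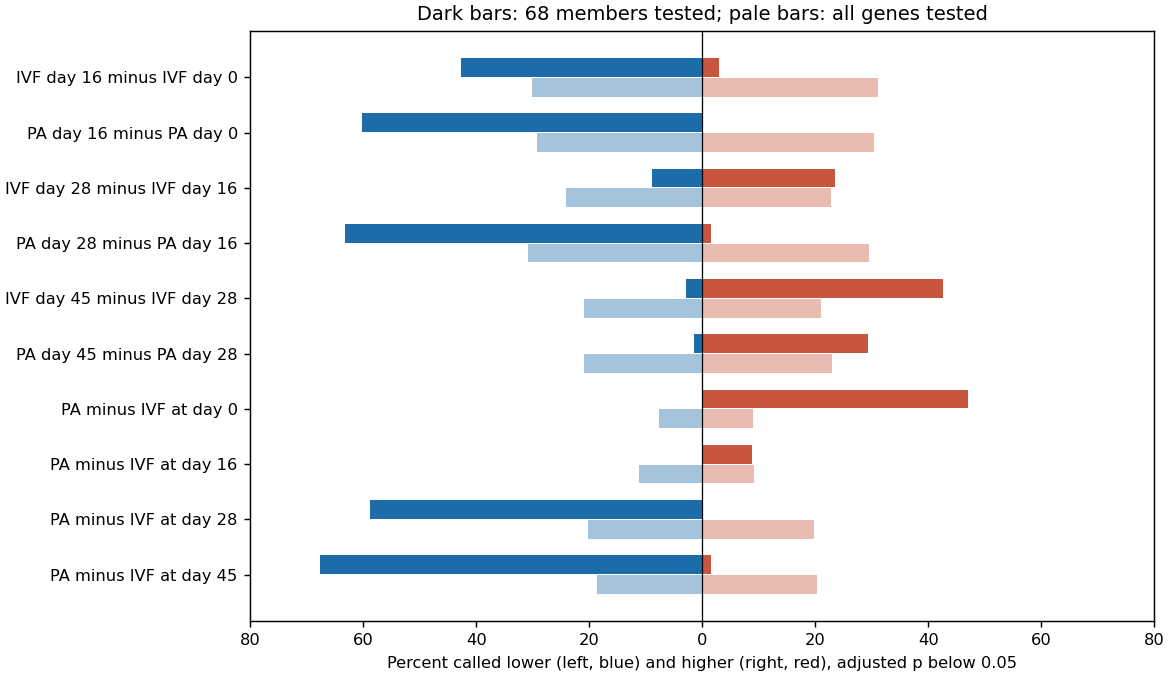
Percent of genes called lower (left of 0) and higher (right of 0) in each comparison, dark bars for the 68 members and pale bars for all 18528 genes. At days 28 and 45 the dark bars of PA against IVF cells lie almost wholly to the left of 0, and at day 0 wholly to the right, while the pale bars reach about as far on either side.

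PA and IVF cells were compared at each day. At day 0, 32 of 68 members were higher in PA cells and 0 lower, against 8.95% and 7.69% of all genes. At day 16, 6 were higher and 0 lower (9.21% and 11.2% of all genes). At day 28, 0 were higher and 40 lower (19.8% and 20.2%), and at day 45, 1 was higher and 46 lower (20.2% and 18.7%). Medians in that order of days were 0.38, 0.19, -0.41 and -0.45 on the log2 scale. The 6 members of day 16 were NDUFA7, NDUFB2, NDUFS4, SDHB, ATP5G2 and ATP5G3, a count near the background of that day. These 4 comparisons share no libraries. In 54 of 68 members (79.4%) the log2 difference was above 0 at days 0 and 16 and below 0 at days 28 and 45, against 1737 of 18528 genes (9.38%). Of the members, 25 (36.8%) were called higher at day 0 and lower at day 45, against 2.62% of all genes, and 31 (45.6%) were called lower at both day 28 and day 45, against 7.50%.

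The count at day 0 rested on every library. It was 5 and 7 without the first and second IVF library and 19 and 5 without the first and second PA library, when 3.66, 3.90, 4.82 and 3.69% of all genes were higher, and it was 54 when the fit held only the 4 libraries of that day. The count at day 16 was 1 and 3 without the first and second IVF library, 3 and 2 without the first and second PA library, and 20 when the fit held only that day. The count at day 45 was 29 without the first IVF library, in which the members were high, and 3 when the fit held only that day. The count at day 28 kept within 1.5 times in all of these fits.

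**Figure D3:**
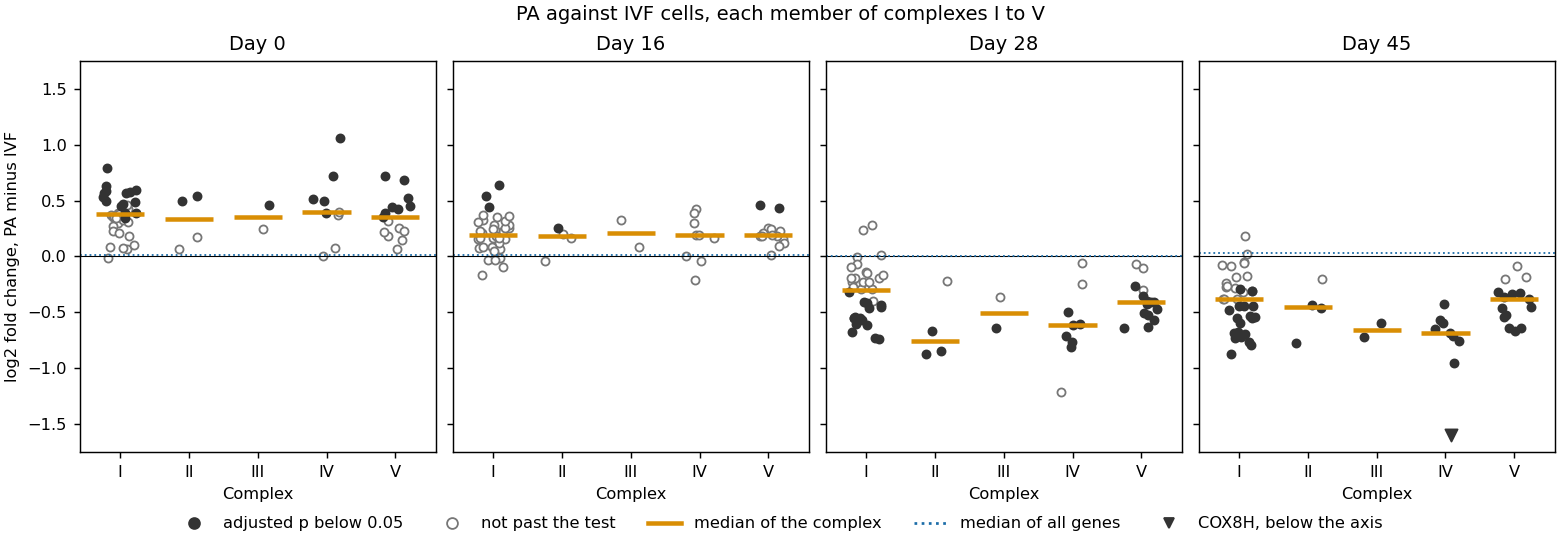
Log2 fold change of PA against IVF cells (y axis) for each member by complex (x axis), 1 panel per day. Filled points passed the test, open points did not, orange bars are medians of the complex and the dotted line is the median of all genes. Medians of all 5 complexes lie above 0 at days 0 and 16 and below 0 at days 28 and 45, and COX8H at day 45 lies below the axis.

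All 5 complexes shared this course. Median log2 differences over the 4 days were 0.38, 0.20, -0.30 and -0.38 for complex I, and 0.34, 0.18, -0.76 and -0.45 for complex II. They were 0.35, 0.21, -0.50 and -0.66 for complex III, 0.40, 0.19, -0.61 and -0.69 for complex IV, and 0.35, 0.19, -0.41 and -0.38 for complex V. No test of one complex against another was made. With the subunits under other symbols, complex III had 9 tested genes, of which 5 were higher in PA cells at day 0, 7 lower at day 28 and 6 lower at day 45, and complex IV had 16, of which 8 were higher at day 0, 11 lower at day 28 and 15 lower at day 45. In summed TPM the PA to IVF ratio at day 16 was 0.952 for complex II and 0.954 for complex IV, on the other side of 1 from their CPM ratios of 1.09 and 1.10, so that no direction is given for these sums at that day.

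Among ATP synthase genes, ATP5G3, 1 of the 3 genes for the c subunit of the membrane ring, had the smallest adjusted p at day 0. It had 287 and 317 CPM in IVF cells and 475 and 524 in PA cells, a difference of 0.72 ± 0.11 (adjusted p = 0.000381). At day 45 the order was reversed, with 278 and 237 CPM in IVF and 199 and 175 in PA cells (-0.46 ± 0.11, adjusted p = 0.00362). ATP5C1, the gamma subunit of the rotating stalk, had 255 and 245 CPM in IVF and 159 and 162 in PA cells at day 45, a difference of -0.64 ± 0.09 (adjusted p = 9.41e-05). ATP5B was lower in PA cells at day 28 (-0.51 ± 0.10, adjusted p = 0.00139) and did not pass the test at day 0 (0.15) or day 45 (-0.09).

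In complex I, NDUFS4 was higher in PA cells at day 0 (0.57 ± 0.10, adjusted p = 0.00166) and at day 16 (0.64 ± 0.10, adjusted p = 0.000467). NDUFA7 was higher at day 0 by 0.80 ± 0.14 (adjusted p = 0.00194). At day 28, NDUFS3 and NDUFA9 were lower by 0.74 ± 0.12 (adjusted p = 0.000185) and 0.60 ± 0.09 (adjusted p = 0.000139). The core subunits followed the rest, with 3 of 7 higher at day 0, 6 of 7 lower at day 28 and 4 of 7 lower at day 45. NDUFS8, which carries a pair of iron-sulfur clusters, had 84.4 and 64.3 CPM in IVF and 46.7 and 34.5 in PA cells at day 45 (-0.87 ± 0.16, adjusted p = 0.000682).

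In complexes II and III, SDHC, the other membrane anchor, had 104 and 107 CPM in IVF and 58.1 and 56.5 in PA cells at day 28 (-0.88 ± 0.13, adjusted p = 0.000104), while at day 45 the libraries held 110 and 141 against 124 and 94.7 CPM and overlapped. SDHA was lower in PA cells at day 45 by 0.78 ± 0.10 (adjusted p = 5.91e-05). UQCRB, which lies at the quinone-binding part of complex III, had 42.2 and 42.5 CPM in IVF and 27.7 and 26.5 in PA cells at day 28 (-0.64 ± 0.12, adjusted p = 0.000876), and 72.7 and 57.3 against 40.1 and 46.1 CPM at day 45 (-0.59 ± 0.12, adjusted p = 0.00184).

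All 9 tested members of complex IV were lower in PA cells at day 45, COX8H with few counts among them, as were both of complex III. NDUFA4 had 145 and 144 CPM in IVF and 81.1 and 83.7 in PA cells at day 28 (-0.81 ± 0.09, adjusted p = 1.47e-05), and 187 and 183 against 132 and 118 at day 45 (-0.57 ± 0.09, adjusted p = 0.000369). COX6C had 198 and 165 CPM against 124 and 97.5 at day 45 (-0.71 ± 0.13, adjusted p = 0.000619). The groups did not overlap in either gene. COX4I1, the main regulatory subunit of the enzyme and listed under another symbol, had 357 and 267 CPM in IVF and 195 and 158 in PA cells at day 45 (-0.82 ± 0.13, adjusted p = 0.000282).

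**Figure D4:**
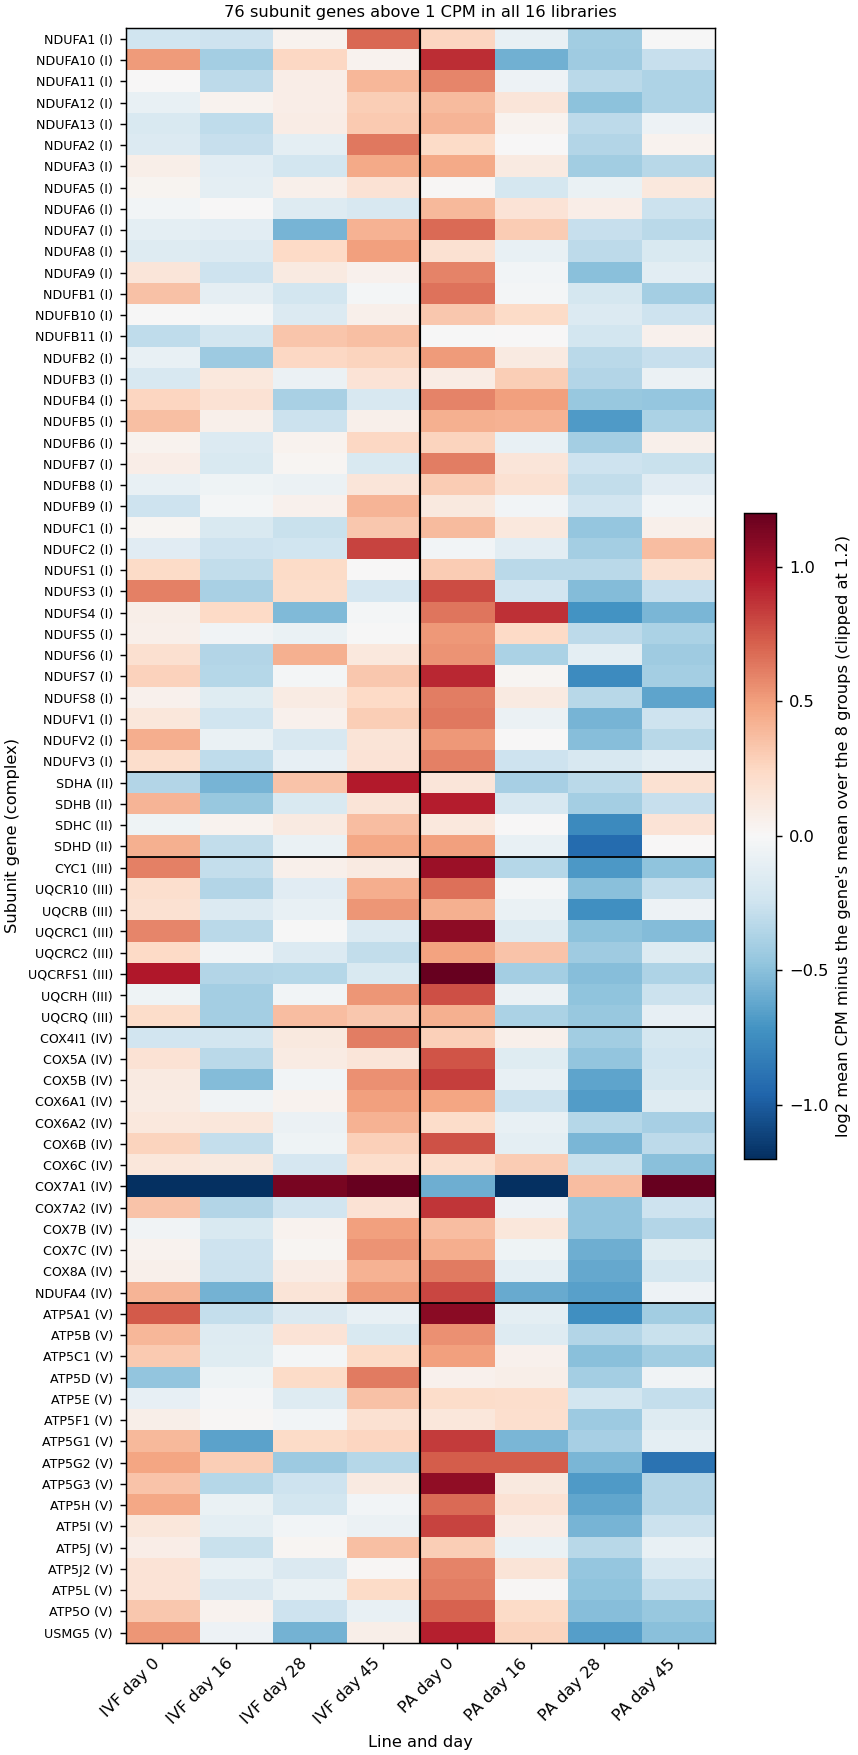
Log2 mean CPM of 76 subunit genes above 1 CPM in all 16 libraries, each relative to its own mean over the 8 groups and clipped at 1.2, with line and day in columns and genes by complex in rows. Red marks a group above the gene's mean and blue one below it; PA cells at day 0 are mostly red and PA cells at day 28 mostly blue.

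Several complex IV subunits exist as tissue isoforms. COX7A1, the isoform of heart and skeletal muscle, was the member with the largest change in level among those well counted. It had 2.55 and 2.32 CPM in IVF cells at day 0, 2.33 and 2.24 at day 16, 18.2 and 15.5 at day 28, and 47.7 and 32.3 at day 45. In PA cells it had 4.84 and 5.35, 2.79 and 3.17, 11.0 and 8.81, and 25.7 and 15.6 CPM. It rose over the course by 4.03 ± 0.26 in IVF cells (adjusted p = 5.5e-09) and by 2.02 ± 0.24 in PA cells (adjusted p = 3.15e-06), and PA libraries were below IVF libraries at day 45 (-0.96 ± 0.23, adjusted p = 0.00437). Striated muscle markers (7 of 10 listed genes tested) summed to 16.2 to 23.4 CPM in IVF cells at day 0 and 17.5 to 20.6 at day 45, and in PA cells to 118 to 124 and then 14.5 to 26.1 CPM. Within that list MYH7, the slow myosin of heart and muscle, averaged 1.59 CPM at day 0 and 13.1 at day 45 in IVF cells, and 2.71 and 13.8 in PA cells, while ACTC1, the cardiac actin, averaged 9.20 and 1.51 CPM in IVF cells, and MYOG and MYL1 were at or near 0. Smooth muscle and pericyte markers (6 of 6) summed to 41.6 to 64.2 CPM in IVF cells at day 0, 37.1 to 58.5 at day 28 and 163 to 199 at day 45. In PA cells they summed to 173 to 180, 22.9 to 25.3 and 132 to 207 CPM. From day 28 to day 45 in IVF cells, mean PDGFRB went from 26.9 to 137 CPM and TAGLN from 11.8 to 39.5. ACTA2 went from 7.65 to 3.04 CPM and CNN1 from 1.02 to 0.532, and MYH11 and RGS5 averaged no more than 0.570. In PA cells PDGFRB went from 15.7 to 81.7 CPM and TAGLN from 5.51 to 78.6, and of the other listed genes only CNN1 went down. The part of muscle cells and pericytes in the level of COX7A1 was not tested. Its ubiquitous counterpart COX7A2 had 99.8 and 107 CPM in IVF cells at day 0 and 108 and 76.2 at day 45, and fell by 1.11 ± 0.14 in PA cells (adjusted p = 5.34e-06), from 140 and 155 to 72.0 and 64.8 CPM.

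COX8H, the heart isoform of the smallest subunit, was counted only at the late days, with 6 and 4 counts in IVF cells at day 28, 33 and 16 at day 45, and 2 and 2 in PA cells at day 28. It had 0 counts in all other groups. With a floor of 3 counts over the group, its level in IVF cells at day 45 was at least 12.7-fold higher than in IVF cells at day 0 and at least 16.5-fold higher than in PA cells at day 45. With COX8H set to its bound, the medians of PA against IVF cells at day 45 remained -0.69 for complex IV and -0.45 for the members. COX8H lay below these medians both in the fit and at the bound, so that they could not move. COX6B2, the testis isoform, had 14.5 and 15.4 CPM in IVF and 17.1 and 16.0 in PA cells at day 0 and no more than 1.99 CPM in any library of days 28 and 45. COX4I2, the lung isoform, had 87 and 69 counts in IVF and 90 and 101 in PA cells at day 0, and no more than 40 in any library of days 28 and 45.

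**Figure D5:**
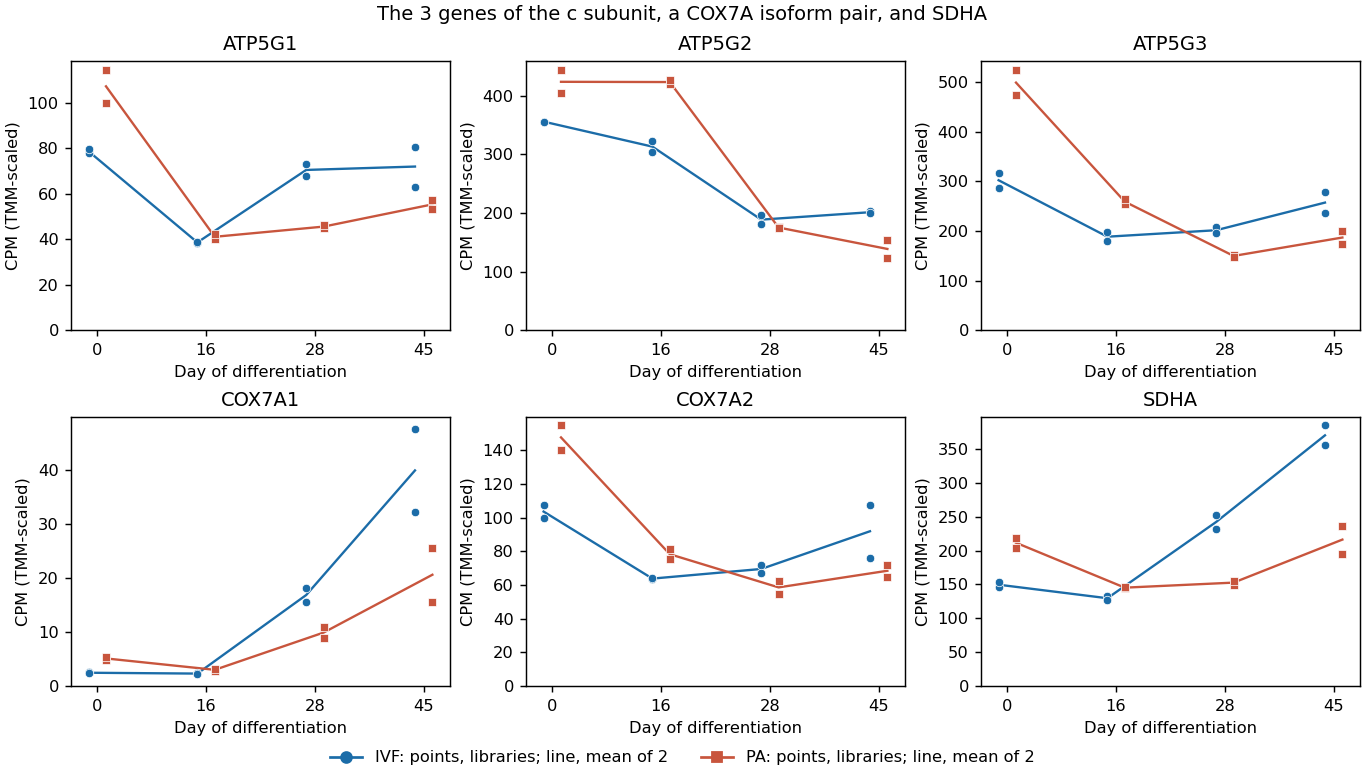
TMM-scaled CPM (y axis) against day (x axis) for ATP5G1, ATP5G2, ATP5G3, COX7A1, COX7A2 and SDHA, with 1 point per library and lines through the means. ATP5G2 ends below its level of day 0 in both lines, COX7A1 rises in both, and SDHA is higher at day 45 than at day 0 in IVF cells, with overlapping libraries in PA cells.

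The 3 ATP5G genes encode the same mature c subunit behind different import signals, and they are shown because their counts rest on telling similar coding sequences apart. In RefSeq Annotation Release 106 on Sscrofa11.1 their proteins have 136, 225 and 141 residues, and the last 75 residues are identical in all 3. Over the 225 bases that encode them, ATP5G1 shares 199 bases (88.4%) with ATP5G2 and 187 (83.1%) with ATP5G3, and ATP5G2 shares 185 (82.2%) with ATP5G3. A stretch of 60 coding bases of the last exon shows how they differ, with capitals at the 18 positions where the genes are not all the same. It lies at chr12:25113315-25113374 (plus strand), chr5:18871178-18871237 (minus strand) and chr15:81091186-81091245 (minus strand).
ATP5G1: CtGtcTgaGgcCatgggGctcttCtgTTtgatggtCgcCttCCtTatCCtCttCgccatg
ATP5G2: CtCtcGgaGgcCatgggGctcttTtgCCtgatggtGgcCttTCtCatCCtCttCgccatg
ATP5G3: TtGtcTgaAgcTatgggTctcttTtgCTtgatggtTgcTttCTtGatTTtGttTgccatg
The genes did not move alike. Between days 0 and 16, ATP5G1 fell by 1.03 ± 0.12 in IVF (adjusted p = 3.64e-06) and 1.38 ± 0.12 in PA cells (adjusted p = 2.01e-07), and ATP5G3 fell by 0.68 ± 0.11 (adjusted p = 6.65e-05) and 0.95 ± 0.11 (adjusted p = 3.18e-06). ATP5G2 had 356 and 356 CPM and then 303 and 323 in IVF cells, and 404 and 443 and then 421 and 426 in PA cells, and did not pass the test in either line. Between days 16 and 28, ATP5G2 fell by 0.73 ± 0.10 in IVF (adjusted p = 4.7e-05) and 1.27 ± 0.10 in PA cells (adjusted p = 1.3e-07), to 197 and 181 and to 176 and 174 CPM. ATP5G1 rose in the same step in IVF cells by 0.87 ± 0.12 (adjusted p = 3.26e-05). Over the whole course ATP5G2 fell in both lines, by 0.82 ± 0.10 in IVF (adjusted p = 5.07e-06) and 1.61 ± 0.10 in PA cells (adjusted p = 5.29e-09), the largest fall of any member in PA cells.

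Promoters of respiratory genes are known to carry sites for the nuclear respiratory factor NRF1, for ETS factors of the GABP kind and for YY1. In windows from 250 bases before to 50 after the annotated gene start, the letters GCGCATGCG of the NRF1 motif were found on either strand at 7 of 83 subunit genes (8.4%), against 380 of 19548 genes (1.94%). ACTTCCG, the core of the ETS motif, was found at 16 of 83 (19.3%) against 7.40%, and AAGATGGCG of the YY1 motif at 5 (6.0%) against 1.47%. A match describes the letters of a window and is not a measured binding site. Windows of 3 of the 7 genes are printed as examples, with the motif in capitals, all on the minus strand of the genome, NDUFB4 at chr13:139730586-139730611, NDUFS6 at chr16:79000052-79000077 and ATP5O at chr13:197519558-197519582, with the motif 111 to 102, 68 to 59 and 44 to 36 bases before the start.
NDUFB4: agtaccttGCGCATGCGCagatcgct
NDUFS6: accgcaccGCGCATGCGCgcctccca
ATP5O: ctgacgcaCGCATGCGCtctcgttc
NDUFB4, an accessory subunit, fell in IVF cells between days 16 and 28 by 0.57 ± 0.11 (adjusted p = 0.00066), and ATP5O, which joins the head of the ATP synthase to its stator, fell by 0.29 ± 0.10 (adjusted p = 0.026). In PA cells they fell by 0.95 ± 0.11 (adjusted p = 3.6e-06) and 0.75 ± 0.10 (adjusted p = 1.48e-05). NDUFS6, an accessory subunit that binds zinc, had 34.8 and 31.1 CPM in IVF cells at day 16 and 62.4 and 50.6 at day 28, a rise of 0.78 ± 0.16 (adjusted p = 0.00127), so that genes with the letters differed in their course.

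Subunit transcripts are short, and length moved with the comparison of the lines at day 0. Of the 68 members, 46 had a longest transcript under 1000 bases, and the median was 811.5 bases against 3313.5 for all genes. All 1333 tested genes under 1000 bases had median PA to IVF differences of 0.23, 0.18, -0.02 and -0.17 on the log2 scale over the 4 days. The 22 members over 1000 bases had medians of 0.33, 0.16, -0.49 and -0.43, whereas the 17171 genes over 1000 bases had medians of 0.00, 0.00, 0.00 and 0.04. Of these 22 members 10 were higher at day 0, 15 lower at day 28 and 14 lower at day 45. The shares among the 17171 genes were 8.69% higher, 20.6% lower and 18.5% lower. Within the lines, short genes had a median of 0.29 from day 28 to day 45 in IVF cells, close to the 0.32 of the short members, and of -0.48 from day 16 to day 28 in PA cells, against -0.42 for the short members. In these steps the long members had 0.23 and -0.49, and the long genes 0.00 in both. From day 0 to day 16 short genes and short members had -0.06 and -0.23 in IVF and -0.09 and -0.42 in PA cells. Their medians were -0.25 and 0.11 for IVF days 16 to 28, and 0.16 and 0.23 for PA days 28 to 45. The part of transcript length in the members' changes was not tested further.

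The 13 protein-coding mitochondrial RNAs, which encode the remaining subunits, shared the course of the members in part. Their summed level averaged 51527 CPM in IVF and 60203 in PA cells at day 0, 35629 and 57534 at day 16, and 34634 and 38167 at day 28. As in the members, PA cells were higher at day 0, and in CPM the PA sum fell from day 16 to day 28. The IVF sum fell from day 0 to day 16, also as in the members. Unlike the members, the mitochondrial sum was not lower in PA than in IVF cells at day 28. At day 16, 12 of 13 were higher in PA cells (9.21% of all genes), and at day 28, 4 were higher and 0 lower (19.8% and 20.2%). At day 45 the libraries of a line differed widely, with 80735 and 60145 CPM in IVF and 75195 and 54188 in PA cells. The PA to IVF ratio was 0.918 there in CPM and 1.25 in TPM, so that no order is given. From day 28 to day 45, 13 of 13 rose in PA and 11 of 13 in IVF cells (23% and 21.1% of all genes).

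Other genes of energy metabolism were taken from lists, and their counts stand against 20.2% of all genes lower and 19.8% higher in PA cells at day 28, and 18.7% lower and 20.2% higher at day 45. At day 0 the shares were 7.69% lower and 8.95% higher. Of 41 tested assembly factors, 13 were lower and 1 higher in PA cells at day 28, and 6 lower and 7 higher at day 45, with the counts of day 45 near the shares of that day. Of 16 genes of the tricarboxylic acid cycle and pyruvate dehydrogenase, 5 were higher at day 0, 13 lower and 1 higher at day 28, and 5 lower and 2 higher at day 45. Among these, MDH2, the mitochondrial malate dehydrogenase, differed by 0.48 at day 0 and by -0.52 at day 28. Of 17 genes of glycolysis, 6 were higher at day 0 and 15 lower at day 45, with GPI at -1.79 and GAPDH at -1.38, and 7 lower and 3 higher at day 28. Of 72 mitochondrial ribosomal proteins, 32 were lower and 2 higher at day 28. They fell over the course in both lines, 52 of 72 in IVF and 65 of 72 in PA cells, against 13 and 53 of the 68 members and 34.5% and 34% of all genes.

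Of 18 regulators of mitochondrial biogenesis, 7 were lower in PA cells at day 28 and 0 higher, and 5 lower and 3 higher at day 45. PPARGC1A, the coactivator PGC-1alpha, averaged 0.227 CPM in IVF cells at day 0 and 235 at day 45, and 0.271 and 90.3 in PA cells. PA cells were lower by 1.94 on the log2 scale at day 28 and by 1.38 at day 45. COX7A2L, which helps join complexes III and IV, rose by 1.02 in IVF cells over the course and changed by 0.08 in PA cells, where it did not pass the test.

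Markers of other cell types moved with the same comparisons. Pan-neuronal markers (8 of 9 listed genes tested) summed to 2770 to 3787 CPM in IVF and 5723 to 5808 in PA cells at day 28, and to 1518 to 2108 and 2085 to 2375 at day 45. At day 28 NEFL averaged 400 CPM in IVF and 151 in PA cells, and NEFM 339 and 130. The other tested genes of the list had higher means in PA cells, with DCX at 572 and 1704 CPM. Dopaminergic markers (10 of 10) summed to 324 to 341 CPM in IVF and 372 to 373 in PA cells at day 28, and to 322 to 369 and 196 to 278 at day 45. At day 28 KCNJ6 averaged 24.5 CPM in IVF and 84.7 in PA cells, and TH, NR4A2 and LMX1A were also higher in PA cells. The other listed genes had lower means there, among them FOXA2 (74.8 CPM in IVF and 27.7 in PA cells) and DDC (59.8 and 40.4). Astrocyte markers (7 of 8) summed to 61.7 to 76.5 and 149 to 154 CPM at day 28, and to 219 to 318 and 473 to 973 CPM at day 45, most of the latter SPARCL1, with GFAP at 5.55 and 2.63 CPM on average. Fibroblast and leptomeningeal markers (7 of 7) summed to 575 to 707 CPM in IVF and 413 to 483 in PA cells at day 28, and to 768 to 1226 and 822 to 2002 at day 45. Neural progenitor markers (6 of 6) summed to 2686 to 3318 and 1626 to 1803 CPM at day 28, and to 5229 to 5414 and 3227 to 4501 at day 45. VIM made up most of these sums. It averaged 2363 CPM in IVF and 1376 in PA cells at day 28, and 4739 and 3410 at day 45. NES went from 483 to 387 CPM in IVF and from 199 to 348 in PA cells, and FABP7 from 149 to 188 and from 133 to 103. The means of PAX6, SOX1 and HES5 were no more than 3.78 CPM on either day. The part of these cell types in the members' levels was not tested.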

How the data were processed

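Poly-A RNA of 16 libraries (TruSeq Stranded mRNA, paired ends) was sequenced, with 2 lines, 4 days and 2 libraries each. Per the labels and the submitters' processing notes, the authors' steps used Trimmomatic 0.38 for trimming, HISAT2 2.1.0 and the Sscrofa11.1 assembly for alignment, SAMtools 1.9, and StringTie 2.1.3b for quantification. Tests used the deposited counts, which hold unscaled integers. The deposited TPM values, which the authors scaled to transcript length and library, were used for levels between genes and as an alternative for summed levels. The deposited FPKM values of the authors were not used. The strand setting of the counting is not given in the sources used here, and pseudogenes of subunits can share reads with them.

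Library totals set the depth: 3 counts in 1 library are 0.0575 to 0.0764 CPM, and the bounds for COX8H used 3 counts over both libraries of a group. The filter was filterByExpr with the 8 groups, the scaling TMM, and the test edgeR 4.0.16 (R 4.3.3). Its quasi-likelihood fit took all 16 libraries with a mean for each group, which left 8 residual degrees of freedom. The standard error is the log2 fold change divided by the square root of F. A gene was called at an adjusted p below 0.05 with no minimum fold, and differences between steps were tested as interactions. Scripts were tested on simulated data. Transcript lengths and sequences came from the RefSeq annotation of Sscrofa11.1. Named members had the smallest adjusted p per complex and direction or the largest change in a comparison, or belonged to the isoform pairs and the ATP5G genes, and up to 3 genes per list were named by smallest adjusted p. Members described outside this rule were named after their values were seen. The members and lists were chosen with earlier results of these data known, and the 17 subunits under other symbols were listed after the annotation had been read. Alternatives were other scalings, filters, sets of libraries and thresholds, a replicate block, and DESeq2 1.42.0. Settings with total counts without mitochondrial RNAs, and those with the subunits under other symbols, were chosen after seeing the data. 1 member is counted in all totals and is not reported here by itself.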

Additional observations from a re-analysis of the deposited data

Results flagged for a closer look

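Steps between days that differed between PA and IVF cells by the interaction test (edgeR, adjusted p below 0.05) are given as PA step minus IVF step on the log2 scale. From day 0 to day 16 the steps of 1 member differed, COX6A1 (-0.59).

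From day 16 to day 28 they differed for 42 members. Among the named ATP synthase genes the values were ATP5C1 -0.67, ATP5G1 -0.72, ATP5G2 -0.54 and ATP5G3 -0.89, and ATP5SL had -0.47. In complexes I, II and III they were NDUFA9 -0.82, NDUFS4 -0.83, SDHA -0.83, SDHD -1.05, UQCR10 -0.69 and UQCRB -0.73. In complex IV they were COX5B -1.04, COX6A1 -0.50, COX6B -0.66, COX7A1 -1.15 and NDUFA4 -0.77, and among the subunits under other symbols COX4I1 -0.82, COX6B2 -2.53, COX7B -0.83 and COX8A -0.85.

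From day 28 to day 45 they differed for 11 members. PA cells had the higher step for ATP5B (0.42), ATP5S (0.83), NDUFS1 (0.73), NDUFS3 (0.66), SDHC (0.67) and SDHD (0.38), and for COX6B2 (2.00) under another symbol. They had the lower step for ATP5E (-0.58), ATP5G2 (-0.43), COX6C (-0.65) and NDUFA7 (-1.02), and, under other symbols, for COX6A2 (-0.54) and COX4I2 (-4.63), which had no more than 40 counts in any library of those days. Groups of 2 libraries are too small to test for outlying libraries.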

How the results depend on the processing

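Comparisons are named in one order throughout: days 0 to 16, 16 to 28 and 28 to 45 in IVF cells, the same in PA cells, day 45 against day 0 in IVF and in PA cells, PA against IVF cells at each day in turn, and the differences between steps. The cause of a change with a setting was not tested unless a setting is stricter or holds fewer libraries by construction. No named gene changed direction in 3788 values over the alternatives, and 552 of them no longer passed the threshold. Most of these genes were named for a small adjusted p or a large change, and the fits share libraries. A kept direction was therefore nearly set in advance and is no independent check. Depth limits COX8H, COX4I2 and COX6B2 at late days.

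With a change of at least 2-fold required, 2, 1, 2, 6, 4, 1, 4, 19, 1, 0, 0, 1, 0, 5 and 1 members were called. With DESeq2 and the criterion of the study (unadjusted p and 2-fold) the counts were 3, 1, 2, 6, 4, 1, 3, 17, 1, 0, 0, 0, 0, 3 and 1. With only the groups compared in the fit, counts were 34 for IVF days 16 to 28, 6 for PA days 28 to 45, 54, 20 and 3 for PA against IVF cells at days 0, 16 and 45, and 16 and 2 for the first and last difference between steps. DESeq2 gave 10 members for PA against IVF cells at day 16 and 3 for the first difference between steps. That last count was 2 with upper quartile scaling, with total counts, with mitochondrial RNAs left out of library sizes with and without TMM, and with only genes counted in all 16 libraries. Total counts without mitochondrial RNAs gave 33 members for PA days 28 to 45.

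Medians scaled to total counts were -0.13, 0.19, -0.36 and -0.34 for IVF days 0 to 16, IVF days 16 to 28, PA days 0 to 16 and PA days 16 to 28, -0.56 for PA day 45 against day 0, and 0.13 for PA against IVF cells at day 16. Without mitochondrial RNAs in the totals they were -0.15, 0.19, -0.36, -0.37 and -0.54 for the first of these, and 0.31 for PA days 28 to 45. The last difference between steps changed sign in its median, from -0.09 to 0.03 and 0.02 under these scalings. The median of PA days 16 to 28 was -0.34 with RLE scaling, -0.39 without a filter, and -0.33 and -0.35 with DESeq2 and with DESeq2 under the study's criterion, and the difference of those steps was -0.53 under RLE and both DESeq2 settings. IVF days 0 to 16 had a median of -0.23 with only the groups compared and -0.28 with the subunits under other symbols. With NDUFA4 counted in complex I, the complex IV medians were -0.22 for IVF days 0 to 16 and 0.33 for PA days 28 to 45.

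Summed TPM gave PA to IVF ratios at days 0 and 16 of 1.17 and 1.016 for complex I, 1.132 and 0.952 for complex II, 1.151 and 1.002 for complex III, 1.187 and 0.954 for complex IV, and 1.155 and 1.03 for complex V, and 0.783 for complex II at day 45.

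Leaving out 1 library at a time gave counts of 23 to 25, 14 to 17, 12 to 38, 32 to 39, 30 to 39, 11 to 27, 23 to 36, 49 to 56, 5 to 19, 1 to 3, 27 to 30, 29 to 55, 0 to 1, 24 to 34 and 4 to 14. Medians ranged from -0.27 to -0.23, 0.10 to 0.17, 0.13 to 0.39, -0.50 to -0.39, -0.48 to -0.39, 0.15 to 0.26, -0.01 to 0.22, -0.89 to -0.67, 0.32 to 0.43, 0.15 to 0.23, -0.44 to -0.38, -0.59 to -0.33, -0.25 to -0.15, -0.63 to -0.55 and -0.24 to 0.11.

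Replicate numbers are shared between groups. The deviations of same-numbered libraries correlated at -0.193 to 0.279 over the tested genes, above 0.1 in 5 of 28 pairs of groups. Such a check cannot exclude pairing, and the main fit treated the libraries as unpaired. With a replicate block the counts were 31, 22, 30, 41, 42, 22, 35, 55, 31, 4, 38, 46, 1, 42 and 11.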
